A study of Arabidopsis thaliana with 9 samples.

Results

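Glucosinolates are the sulfur-rich defence compounds of Arabidopsis thaliana and its relatives. The 42 genes described here make them, switch their synthesis on or break them down, out of 37184 genes in each count table. They were chosen by gene identifier, for their known roles: the R2R3-MYB regulators MYB28, MYB29, MYB76, MYB34, MYB51 and MYB122, the enzymes of methionine chain elongation, core synthesis and side-chain modification, and the hydrolases that act on the finished compounds. The pathway was taken up with the small RNA result for MYB28 in these libraries already known. All small RNA differences between the genotypes given for the 42 genes are therefore descriptions, and nothing is inferred from their number.

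The data comprised 3 small RNA libraries of dxo1-2, 3 total RNA libraries of dxo1-2 depleted of ribosomal RNA (RNA-seq) and 3 small RNA libraries of wild-type Col-0. The material was seedlings aged 21 days, per the labels, raised on soil with a 16 h day and an 8 h night once seeds had spent 2 days at 4 °C. They give dxo1-2 as the only genetic change and do not say what kind of allele it is. Wild-type RNA-seq was not analysed here, so RNA-seq gives levels in dxo1-2 and no change between genotypes.

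In the glucosinolate pathway, aliphatic compounds are made from methionine and indolic compounds from tryptophan. Methionine is first lengthened by MAM synthases and their partner enzymes. CYP79 enzymes turn the amino acid into an aldoxime, CYP83 enzymes oxidise it, sulfur is added from glutathione and the SUR1 lyase frees a thiohydroximate, which UGT74 enzymes glucosylate and the sulfotransferases SOT16, SOT17 and SOT18 sulfate. MYB28, MYB29 and MYB76 activate the aliphatic branch, and MYB34, MYB51 and MYB122 the indolic branch. Myrosinases such as TGG1 and TGG2 hydrolyse glucosinolates when tissue is damaged. Small RNA reads over a protein-coding gene can be siRNAs made from its transcript or fragments of the transcript itself, and the tables hold no read lengths to separate them.

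Gene counts ranged from 5022945 to 5698185 in dxo1-2 small RNA, from 3976221 to 4393015 in Col-0 small RNA and from 60138933 to 71210737 in dxo1-2 RNA-seq. The targeted gene DXO1 (AT4G17620) had 60, 46 and 57 small RNA counts in dxo1-2 libraries, 26, 45 and 21 in Col-0 libraries, and 108, 76 and 113 counts in dxo1-2 RNA-seq, which does not check the genotype without a wild-type RNA-seq level. In RNA-seq the summed level of 5 green leaf markers was 10420 to 12620 CPM (counts per 1000000 gene counts), while 5 flower markers summed to 0.599 to 1.13, 5 root markers to 3.51 to 4.52 and 4 seed markers to 0.0665 to 0.109 CPM. Of the root markers, GL2 gave nearly all of the sum, with a mean of 3.72 CPM. The other 4 had means under 1 CPM, and 2 of them were at 0 in every RNA-seq library. Col-0 replicate 3 stood apart over the 42 genes, with 823 small RNA counts on them against 521 and 517 in Col-0 replicates 1 and 2. Green leaf markers summed to 894 to 1111 small RNA CPM in dxo1-2 and 326 to 728 in Col-0. Of the 5, CAB1 was called higher (746 CPM in dxo1-2 and 232 in Col-0), and the others were not called. In the same order RBCS1A stood at 197 and 142 CPM and GAPA at 28.9 and 18.6 CPM. RCA stood at 40.8 and 49.9 CPM and PSBP-1 at 22.2 and 34.9 CPM. The part of the green leaf markers in the results below was not tested.

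The glucosinolate genes took 0.0782% ± 0.00449 of small RNA gene counts in dxo1-2 and 0.0148% ± 0.00344 in Col-0 (SD, n = 3 each). In dxo1-2 a few genes carried most of this. MYB28 alone held 34.1%, 32.4% and 32.8% of the small RNA counts on the 42 genes in dxo1-2, against 1.92%, 4.06% and 1.94% in Col-0. SOT16, SOT17 and SOT18 together held 37.8% to 38.1% in dxo1-2 and 17.1% to 35.98% in Col-0. The myrosinase genes TGG1 and TGG2 went the other way, with 1.17% to 2.50% in dxo1-2 and 16.6% to 32.2% in Col-0. In dxo1-2 RNA-seq the same shares were 0.429% to 0.563% for MYB28, 5.74% to 6.15% for the sulfotransferase genes and 21.4% to 22.9% for the myrosinase genes. These shares are of counts and are not scaled for gene length. A share also falls when other members rise. By small RNA CPM the difference was smaller, with means of 29.8 in Col-0 and 9.72 in dxo1-2 for TGG1, and 11.2 and 2.77 for TGG2.

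**Figure D1:**
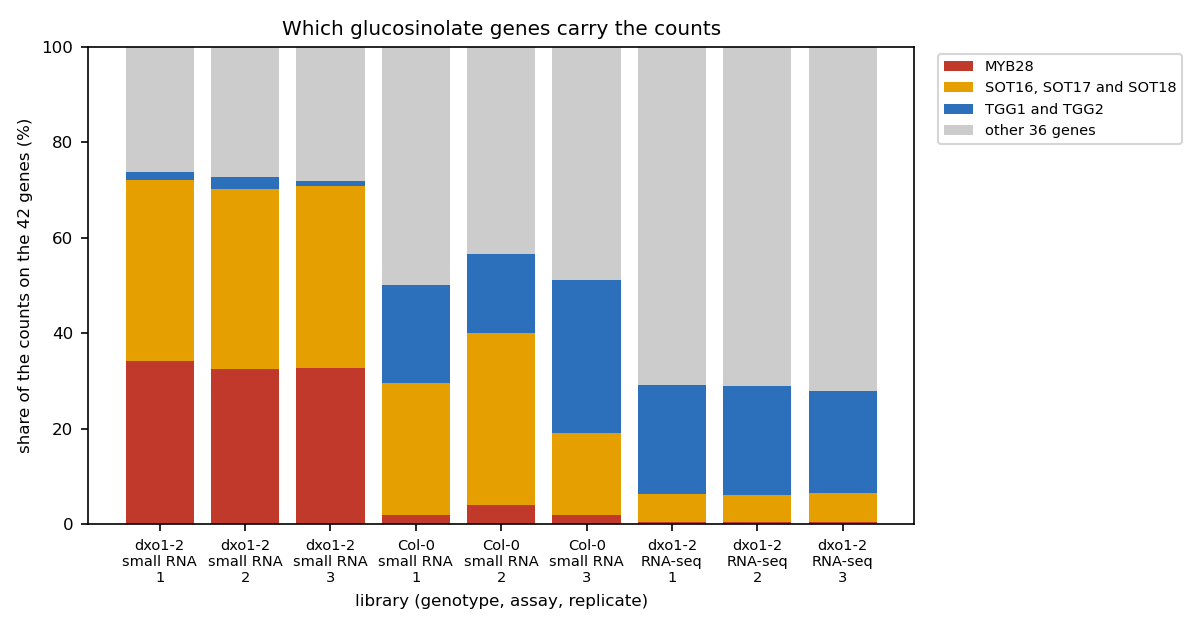
Share of the counts on the 42 glucosinolate genes (percent, y axis) held by MYB28, the 3 sulfotransferase genes, TGG1 with TGG2 and the other 36 genes, in each library (x axis). MYB28 fills 32.4% to 34.1% of the dxo1-2 small RNA bars, 1.92% to 4.06% of the Col-0 small RNA bars and at most 0.563% of the dxo1-2 RNA-seq bars.

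Of the 42 genes, 29 passed the expression filter of the genotype comparison and 13 were left out by it for their low small RNA counts. The filter can admit a gene through its dxo1-2 counts alone. Among the 29, 20 were called higher and 2 lower in dxo1-2 at an adjusted p under 0.05 (edgeR, Benjamini-Hochberg over 11534 genes). That is 68.97% higher and 6.90% lower, beside 26.8% higher and 23% lower among all tested genes. Protein-coding genes with an RNA-seq mean of at least 1 CPM are the closer background, and among 4704 of these 52.1% were higher and 6.59% lower. In 19 of the 29 tested members every dxo1-2 library lay above every Col-0 library, beside 31.1% of all tested genes. The median log2 fold change (dxo1-2 over Col-0) was 1.52 over the tested members and -0.019 over all tested genes. Neither comparison was made with the closer background, so neither shows how far the members differ from expressed protein-coding genes. The balance of calls over all genes rested on the scaling: 53.8% of calls were higher as reported, 84.9% with library totals alone, 93.2% with all lines of the table as library size and 39.0% with scaling from small nuclear RNA genes. The median of all tested genes moved to 0.31, 0.55 and -0.42 in the same order. With the last of these scalings 13 members were higher and 2 lower.

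**Figure D2:**
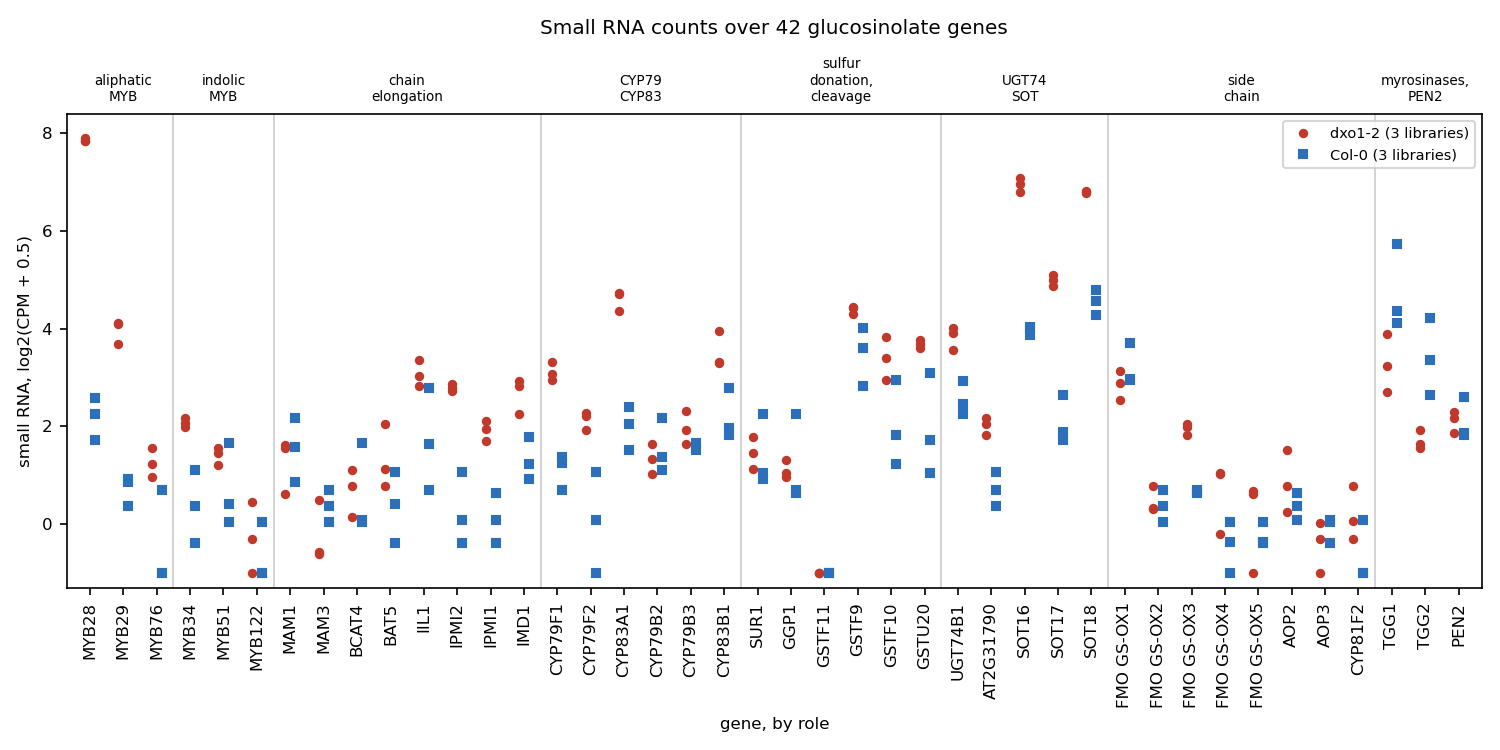
Small RNA level of the 42 genes as log2(CPM + 0.5) (y axis) by gene and role (x axis), with the 3 dxo1-2 libraries as circles and the 3 Col-0 libraries as squares. MYB28 and the SOT genes lie highest in dxo1-2, and TGG1 and TGG2 are lower in dxo1-2 than in Col-0.

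The aliphatic regulators stood out most. MYB28 (AT5G61420), the main activator of aliphatic glucosinolate synthesis, had 228, 227 and 237 small RNA CPM in dxo1-2 libraries and 2.78, 5.52 and 4.26 CPM in Col-0 libraries. The groups were far apart and the dxo1-2 libraries differed little among themselves. Its mean was 231 ± 5.55 CPM in dxo1-2 and 4.19 ± 1.37 CPM in Col-0 (SD, n = 3 each), 55.2-fold higher, and its fitted log2 fold change held rank 25 of 11534 tested genes. It rested on 4107 counts in dxo1-2 and 47 in Col-0.

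MYB29 (AT5G07690), a second activator of the same branch, had 16.7, 16.8 and 12.3 CPM in dxo1-2 and 1.39, 1.31 and 0.799 CPM in Col-0. The groups did not overlap, and its log2 fold change of 3.68 ± 0.32 (approximate SE) was smaller than that of MYB28 (5.77 ± 0.14). The difference between these fold changes was not tested. MYB76 (AT5G07700), which lies next to MYB29 and has a lesser part in the same branch, had 12, 8 and 14 counts in dxo1-2 and 4, 0 and 0 in Col-0, and was left out by the expression filter. With no filter it was called higher (log2 fold change 2.36, edgeR, adjusted p = 0.00994), the only one of the 12 filtered members with any count to be called there.

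MYB28 and MYB29 had almost the same RNA-seq level per gene length in dxo1-2, 12.3 ± 1.26 and 12.4 ± 0.943 CPM per kb of gene span (SD, n = 3). Gene span runs from the first to the last annotated base, introns included. The small RNA level of MYB28 in dxo1-2 was nevertheless 109 CPM per kb and that of MYB29 7.96 CPM per kb. MYB28 thus had 13.5 to 19.3 small RNA counts for each MYB29 count in dxo1-2 and 2.00 to 5.33 in Col-0. In dxo1-2 RNA-seq it had 0.936 to 1.23 counts for each MYB29 count.

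The NAC genes beside these regulators had similar raw counts in both genotypes, but once scaled both were called lower in dxo1-2. MYB76, the other neighbour of MYB29, was higher in every dxo1-2 library. MYB28 has NAC100 (AT5G61430) as a neighbour and MYB29 has NAC080 (AT5G07680), both genes of the NAC transcription factor family. NAC100 had 684, 490 and 653 small RNA counts in dxo1-2 and 640, 507 and 547 in Col-0. Its log2 fold change was -0.57 ± 0.11 (edgeR, adjusted p = 0.00135). NAC080 had 684, 488 and 655 in dxo1-2 and 640, 507 and 546 in Col-0. Counts this close in every library are not treated as separate measurements, since related copies can share reads. The counts of MYB28 and MYB29 showed no such match. The gene on the other side of MYB28, AT5G61412, had 2 counts in dxo1-2 and 1 in Col-0, too few to show a direction. The neighbours described here were chosen after their values were seen.

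The indolic regulators had 66, 39 and 7 small RNA counts in dxo1-2 (MYB34, MYB51 and MYB122), far below MYB28 and on either side of the 34 of MYB76. In Col-0 they had 10, 15 and 2 counts, with MYB34 and MYB51 near the 13 of MYB29. MYB34 (AT5G60890) had 3.67, 3.47 and 3.98 CPM in dxo1-2 and 1.67, 0.789 and 0.266 CPM in Col-0, a log2 fold change of 2.02 ± 0.49 that was 2.72 without Col-0 replicate 1. Its dxo1-2 libraries lay above all Col-0 libraries. MYB51 (AT1G18570) had 2.45, 1.83 and 2.25 CPM in dxo1-2 and 0.833, 0.526 and 2.66 CPM in Col-0. The groups overlapped through Col-0 replicate 3, and its log2 fold change of 0.69 ± 0.52 did not pass (edgeR, adjusted p = 0.286). Without that replicate it was 1.63 and passed (adjusted p = 0.0348). MYB122 (AT1G74080) had 7 counts in dxo1-2 and 2 in Col-0, a depth-scaled ratio of 2.76 with an exact binomial 95% interval of 0.526 to 27.2, which covers counting error only.

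In chain elongation, the isopropylmalate isomerase genes were higher while the entry enzymes were not called. IPMI2 (AT2G43100), a small subunit of the isomerase, had 6.12, 6.75 and 6.40 CPM in dxo1-2 and 0.556, 0.263 and 1.60 CPM in Col-0. The groups lay well apart, with a log2 fold change of 2.95 ± 0.46 that was 3.88 without Col-0 replicate 3. IPMI1 (AT3G58990), another small subunit, had 3.37, 3.83 and 2.77 CPM in dxo1-2 and 0.556, 1.05 and 0.266 CPM in Col-0. The isopropylmalate dehydrogenase gene IMD1 (AT5G14200), which overlaps another gene, had 4.28, 6.57 and 7.10 CPM in dxo1-2 and 1.39, 1.84 and 2.93 CPM in Col-0.

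The large subunit gene IIL1 (AT4G13430) had 6.58, 7.67 and 9.69 CPM in dxo1-2 and 1.11, 2.63 and 6.39 CPM in Col-0. Its spread in Col-0 was wide and its call weak (log2 fold change 1.22 ± 0.43, edgeR, adjusted p = 0.0335). It was lost without dxo1-2 replicate 2 or 3 or Col-0 replicate 1 or 2 (adjusted p = 0.0725, 0.131, 0.111 and 0.0954), while the log2 fold change was 2.03 without Col-0 replicate 3. MAM1 (AT5G23010), the synthase that starts each elongation round, had 2.45, 2.56 and 1.04 CPM in dxo1-2 and 2.50, 1.31 and 4.00 CPM in Col-0. The groups overlapped (log2 fold change -0.36 ± 0.48, edgeR, adjusted p = 0.552). MAM3 (AT5G23020), beside MAM1, had 7 counts in dxo1-2 and 9 in Col-0. BCAT4 (AT3G19710), the methionine aminotransferase, had 20 counts in dxo1-2 and 14 in Col-0, and the plastid transporter gene BAT5 (AT4G12030) had 38 in dxo1-2 and 10 in Col-0. The expression filter left out these last 3, and with no filter none was called (edgeR, adjusted p = 0.536, 0.932 and 0.124).

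Among the cytochrome P450 genes of core synthesis, those of the aliphatic branch were higher in dxo1-2 and those of the indolic branch were divided. CYP83A1 (AT4G13770), the aliphatic aldoxime oxidase, had 20.04, 25.7 and 26.1 CPM in dxo1-2 and 3.61, 2.37 and 4.80 CPM in Col-0. It showed the largest fold change of these 6 genes, 2.73 ± 0.25 on the log2 scale. CYP79F1 (AT1G16410), which makes the aldoximes of aliphatic compounds, had 7.19, 7.85 and 9.52 CPM in dxo1-2 and 1.11, 2.10 and 1.87 CPM in Col-0.

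CYP79F2 (AT1G16400), its close copy and neighbour, had 4.13, 3.29 and 4.33 CPM in dxo1-2 and 0.556, 0 and 1.60 CPM in Col-0. Its log2 fold change of 2.41 ± 0.59 was 1.81 without Col-0 replicate 2 and 3.71 without Col-0 replicate 3. In dxo1-2 RNA-seq there were 41.1 to 50.6 CYP79F1 counts for each CYP79F2 count, but in dxo1-2 small RNA 1.74 to 2.39. Col-0 small RNA gave 2.00 in replicate 1 and 1.17 in replicate 3, on 8 CYP79F2 counts over all Col-0 libraries. Col-0 replicate 2 had 0 CYP79F2 counts and so no ratio. The copies can share small RNA reads, so their values are not surely separate.

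CYP83B1 (AT4G31500), the indolic aldoxime oxidase, had 9.48, 9.31 and 14.9 CPM in dxo1-2 and 3.06, 3.42 and 6.39 CPM in Col-0. It was called higher, with a log2 fold change of 1.38 ± 0.33. CYP79B2 (AT4G39950) and CYP79B3 (AT2G22330), which make indole-3-acetaldoxime from tryptophan, were not. CYP79B2 had 1.53, 2.01 and 2.60 CPM in dxo1-2 and 1.67, 2.10 and 4.00 CPM in Col-0 (edgeR, adjusted p = 0.518). CYP79B3 had 2.60, 3.29 and 4.50 CPM in dxo1-2 and 2.50, 2.37 and 2.66 CPM in Col-0 (edgeR, adjusted p = 0.322). Both genes overlapped between the genotypes.

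**Figure D3:**
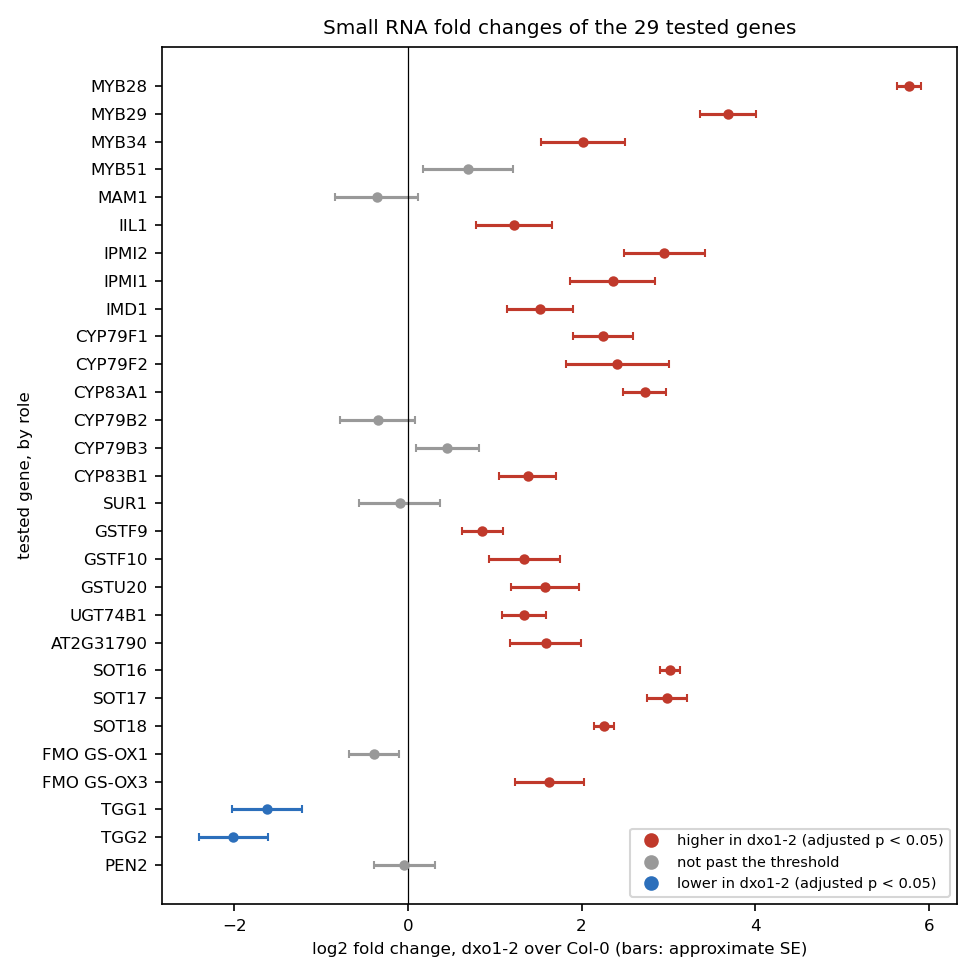
Fitted log2 fold change of small RNA counts, dxo1-2 over Col-0 (x axis, bars are the approximate SE), for the 29 tested genes by role (y axis). It runs from -2.01 for TGG2 to 5.77 for MYB28, with 20 genes called higher, 2 lower and 7 not called.

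Of the 6 genes that supply and release sulfur, 4 were tested and 3 called higher, beside 52.1% of tested protein-coding genes expressed in RNA-seq. The phi-class glutathione transferase gene GSTF9 (AT2G30860) had 19.3, 21.0 and 21.3 CPM in dxo1-2 and 11.7, 6.57 and 15.7 CPM in Col-0. Its log2 fold change of 0.86 ± 0.24 was the smallest among the called members, and its call was lost with small nuclear RNA scaling (edgeR, adjusted p = 0.304). GSTF10 (AT2G30870), its neighbour and relative, which overlaps another gene, had 7.19, 10.04 and 13.7 CPM in dxo1-2 and 3.06, 1.84 and 7.19 CPM in Col-0. The highest Col-0 library reached the lowest dxo1-2 library. Its log2 fold change of 1.34 ± 0.41 was 2.03 without Col-0 replicate 3, and its call was lost without dxo1-2 replicate 3 or Col-0 replicate 1 or 2 (edgeR, adjusted p = 0.0913, 0.0592 and 0.0609). The call was also lost with small nuclear RNA scaling (edgeR, adjusted p = 0.0927). GSTU20 (AT1G78370), a tau-class transferase, had 12.4, 13.1 and 11.6 CPM in dxo1-2 and 2.78, 1.58 and 7.99 CPM in Col-0. Its log2 fold change was 1.58 ± 0.39, and 2.47 without Col-0 replicate 3.

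SUR1 (AT2G20610), the lyase shared by both branches, had 1.68, 2.92 and 2.25 CPM in dxo1-2 and 1.39, 1.58 and 4.26 CPM in Col-0. The groups overlapped and the log2 fold change of -0.095 ± 0.47 did not pass (edgeR, adjusted p = 0.877). The gamma-glutamyl peptidase gene GGP1 (AT4G30530), whose product trims the glutathione conjugate, had 30 counts in dxo1-2 and 24 in Col-0 and was left out by the filter. GSTF11 (AT3G03190), which overlaps another gene, had 0 counts in every small RNA library, which allows up to 3 counts in each, although it had 1038, 1117 and 1316 counts in dxo1-2 RNA-seq.

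All 5 genes of the last core steps were called higher, beside 52.1% of tested protein-coding genes expressed in RNA-seq, and AT2G31790 lost its call with small nuclear RNA scaling (edgeR, adjusted p = 0.0893). SOT16 (AT1G74100), the sulfotransferase of indolic compounds, had 111, 124 and 134 CPM in dxo1-2 and 14.2, 15.8 and 15.5 CPM in Col-0. SOT18 (AT1G74090), a sulfotransferase of aliphatic compounds that lies beside SOT16 and overlaps another gene, had 110, 111 and 113 CPM in dxo1-2 and 23.1, 27.3 and 18.9 CPM in Col-0. Both were several-fold higher in dxo1-2 with tight replicates, by 3.02 ± 0.11 and 2.26 ± 0.12 on the log2 scale.

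SOT17 (AT1G18590), a further sulfotransferase of aliphatic compounds at another locus, had 34.0, 31.2 and 28.7 CPM in dxo1-2 and 2.78, 5.78 and 3.20 CPM in Col-0. Its log2 fold change was 2.98 ± 0.23. SOT16 had 1.01 to 1.19 small RNA counts for each SOT18 count in dxo1-2 and 0.577 to 0.817 in Col-0. SOT16 and SOT18 are related copies that can share reads, so their values are not surely separate.

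UGT74B1 (AT1G24100), the main glucosyltransferase, had 15.6, 11.3 and 14.5 CPM in dxo1-2 and 5, 7.10 and 4.26 CPM in Col-0. The UGT74 gene AT2G31790, which overlaps other genes, had 3.06, 4.02 and 3.63 CPM in dxo1-2 and 1.11, 0.789 and 1.60 CPM in Col-0. Their log2 fold changes were 1.34 ± 0.25 and 1.59 ± 0.41, and no dxo1-2 library of either gene fell among the Col-0 libraries.

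Of the 8 side-chain genes the expression filter left out 6 for their low small RNA counts. Of the flavin monooxygenases that oxidise the methylthio side chain, FMO GS-OX3 (AT1G62560) had 3.06, 3.65 and 3.46 CPM in dxo1-2 and 1.11, 1.05 and 1.07 CPM in Col-0, with a log2 fold change of 1.63 ± 0.39. FMO GS-OX1 (AT1G65860) had 6.88, 5.29 and 8.31 CPM in dxo1-2 and 12.5, 7.36 and 7.19 CPM in Col-0. Its groups overlapped and it was not called (log2 fold change -0.39 ± 0.29, edgeR, adjusted p = 0.279).

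Of the side-chain genes left out, FMO GS-OX4 (AT1G62570) had 21 counts in dxo1-2 and 3 in Col-0, a depth-scaled ratio of 5.52 (exact binomial 95% interval 1.65 to 28.9). CYP81F2 (AT5G57220), which hydroxylates the indole ring, had 12 and 2 counts in the same order, a ratio of 4.73 (1.05 to 43.5). Both ratios pool the libraries of a genotype and are scaled by gene totals, and their intervals cover counting error only. Both genes overlapped between the genotypes, and with no filter neither was called (edgeR, adjusted p = 0.0894 and 0.299). FMO GS-OX2 (AT1G62540) had 16 counts in dxo1-2 and 9 in Col-0, FMO GS-OX5 (AT1G12140) 12 and 4, AOP2 (AT4G03060) 25 and 9, and AOP3 (AT4G03050) 5 and 5. AOP2 and AOP3 encode oxoglutarate-dependent dioxygenases, and RefSeq lists the Columbia AOP2 as a transcribed pseudogene.

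The myrosinase genes were the only 2 tested members called lower. TGG1 (AT5G26000) had 8.87, 14.2 and 6.06 CPM in dxo1-2 and 20, 16.8 and 52.5 CPM in Col-0. TGG2 (AT5G25980) had 2.60, 3.29 and 2.42 CPM in dxo1-2 and 9.72, 5.78 and 18.1 CPM in Col-0. In both genes every dxo1-2 library lay below every Col-0 library, and Col-0 replicate 3 was far above the other Col-0 libraries. The log2 fold changes were -1.62 ± 0.40 and -2.01 ± 0.40, and without Col-0 replicate 3 they were -0.96 and -1.51, with adjusted p = 0.0122 and 0.00308 in edgeR. TGG1 and TGG2 are related copies that can share reads.

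PEN2 (AT2G44490), an atypical myrosinase of the pathogen response, had 3.98, 4.38 and 3.12 CPM in dxo1-2 and 3.06, 3.15 and 5.60 CPM in Col-0 (log2 fold change -0.043 ± 0.35, edgeR, adjusted p = 0.926). TGG1 and TGG2 are known from guard cells and myrosin idioblasts. The 4 markers of this lineage and of stomata summed to 25.4 to 26.5 small RNA CPM in dxo1-2 and 2.22 to 6.39 in Col-0. The receptor gene TMM gave nearly all of the dxo1-2 sum, with 25.5, 23.4 and 24.4 CPM, against 0.833, 2.10 and 2.66 CPM in Col-0. FAMA, the defining factor of both cell types, had 0.459, 1.28 and 0.865 CPM in dxo1-2 and 1.39, 1.84 and 3.20 CPM in Col-0. It was left out by the expression filter, on 15 counts in dxo1-2 and 24 in Col-0, and its scaled values were lower in every dxo1-2 library, the same direction as TGG1 and TGG2. SDD1 and EPF2 stayed under 1 CPM in every small RNA library. EPF2, on 9 counts in dxo1-2 and 1 in Col-0, was higher in every dxo1-2 library. TMM and EPF2 thus went in the opposite direction to TGG1 and TGG2. SDD1 had 1 count in dxo1-2 and 3 in Col-0. The part of these markers in the myrosinase result was not tested. In bulk seedling RNA fewer cells of a type and less RNA per cell cannot be told apart.

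At the RNA level in dxo1-2 the order of the members differed in part from that by dxo1-2 small RNA. Spearman's rho between the levels per kb was 0.48 over the 40 members with at least 1 CPM in RNA-seq. Per kb of gene span, the highest 8 were GSTF9 at 368 ± 19.5 CPM per kb (SD, n = 3), GSTU20 at 281 ± 12.9, TGG1 at 276 ± 5.45, TGG2 at 130 ± 4.85, SOT16 at 102 ± 10.5, GGP1 at 101 ± 13.1, IMD1 at 96.7 ± 1.24 and CYP83B1 at 95.8 ± 12.3. GSTU20 and TGG1 were within their spread of each other, as were SOT16, GGP1, IMD1 and CYP83B1. The median member stood at 33.6 CPM per kb.

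MYB28 held rank 31 of 42 by RNA-seq per kb but rank 1 by dxo1-2 small RNA per kb and rank 12 by Col-0 small RNA per kb. The members under 1 CPM in RNA-seq were MYB122, with 38, 32 and 70 counts, and AOP3, with 1, 0 and 0. MAM3 (3.39 ± 0.0134 CPM per kb), CYP79F2 (2.45 ± 0.315) and FMO GS-OX2 (1.24 ± 0.123) were the next lowest. Against their neighbours in the genome, MAM1 stood at 45.0 ± 1.79 CPM per kb and CYP79F1 at 80.7 ± 3.16.

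**Figure D4:**
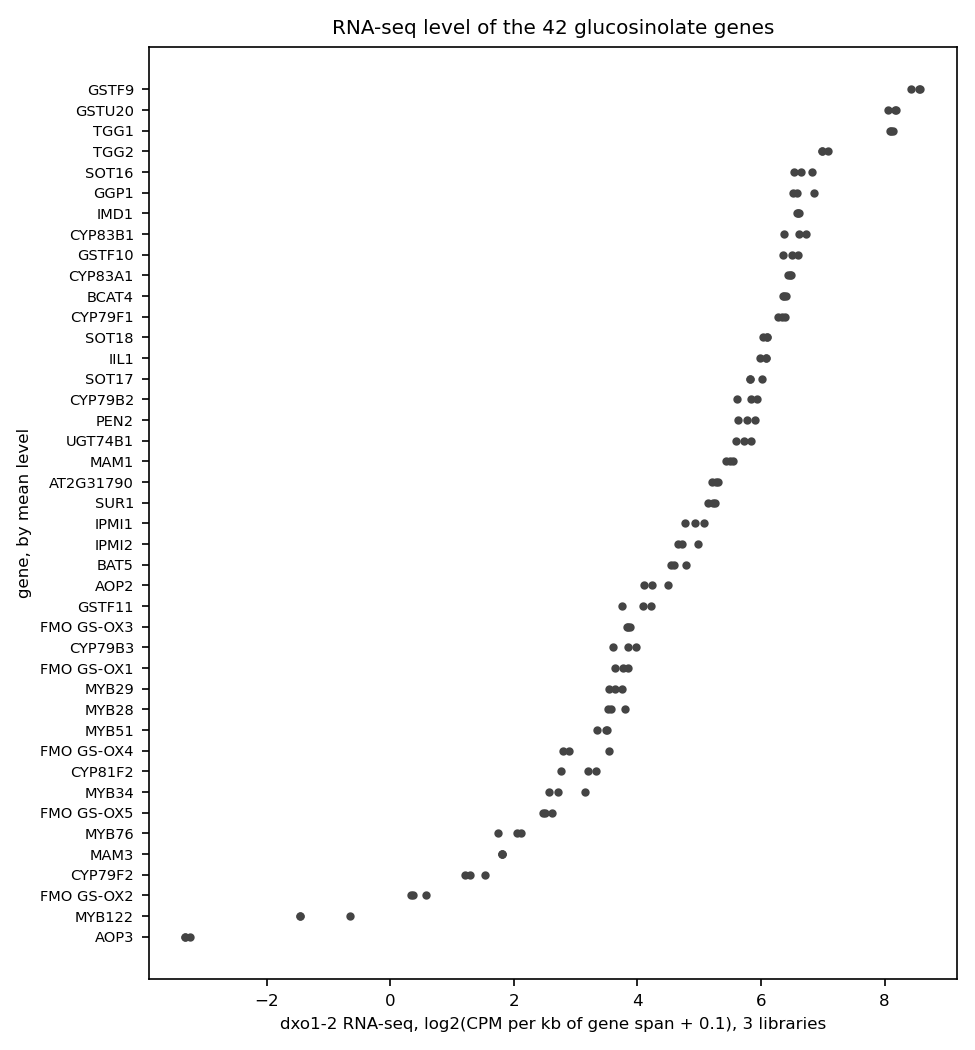
RNA-seq level in dxo1-2 as log2(CPM per kb of gene span + 0.1) (x axis) for the 42 genes in order of their mean (y axis), 1 point per library. GSTF9, at 368 CPM per kb, is the highest, MYB28 and MYB29 sit side by side near 12 CPM per kb, and AOP3 is at or near 0.

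The small RNA level was next set against the RNA-seq level of the same gene in dxo1-2, for the 40 members with at least 1 CPM in RNA-seq. Gene length cancels in this ratio. The median member had 0.0412 small RNA CPM per RNA-seq CPM, below the 0.0794 of 17215 protein-coding genes with the same minimum, and 17 of 40 members lay above that value. MYB28 had 8.85, more than 99.0% of those protein-coding genes. The next highest were SOT18 at 1.19, SOT16 at 0.890, CYP79F2 at 0.651 and MYB29 at 0.641. At the other end, besides GSTF11 at 0, stood BCAT4 at 0.0053, TGG2 at 0.0070, GGP1 at 0.0077 and MAM1 at 0.011. Of the high end, SOT16 and SOT18 held ranks 5 and 13 of 42 by RNA-seq per kb, but MYB29, MYB28 and CYP79F2 ranks 30, 31 and 39. At the low end TGG2, GGP1, BCAT4 and MAM1 held ranks 4, 6, 11 and 19. The RNA-seq level is the divisor of this ratio, so ratio and level are not independent.

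Across the 40 members, log2 small RNA and log2 RNA-seq per kb (pseudocount 0.1) correlated with Pearson's r = 0.45 and Spearman's rho = 0.48 for dxo1-2 small RNA. For Col-0 small RNA, set against the same dxo1-2 RNA-seq, r was 0.71 and rho 0.75. Without MYB28, SOT16, SOT17 and SOT18, r was 0.56 in dxo1-2 and 0.76 in Col-0. Over the 17215 protein-coding genes r was 0.47 in dxo1-2 and 0.44 in Col-0. The points are genes and not replicates, they share libraries and gene lengths, and the difference between genotypes was not tested.

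**Figure D5:**
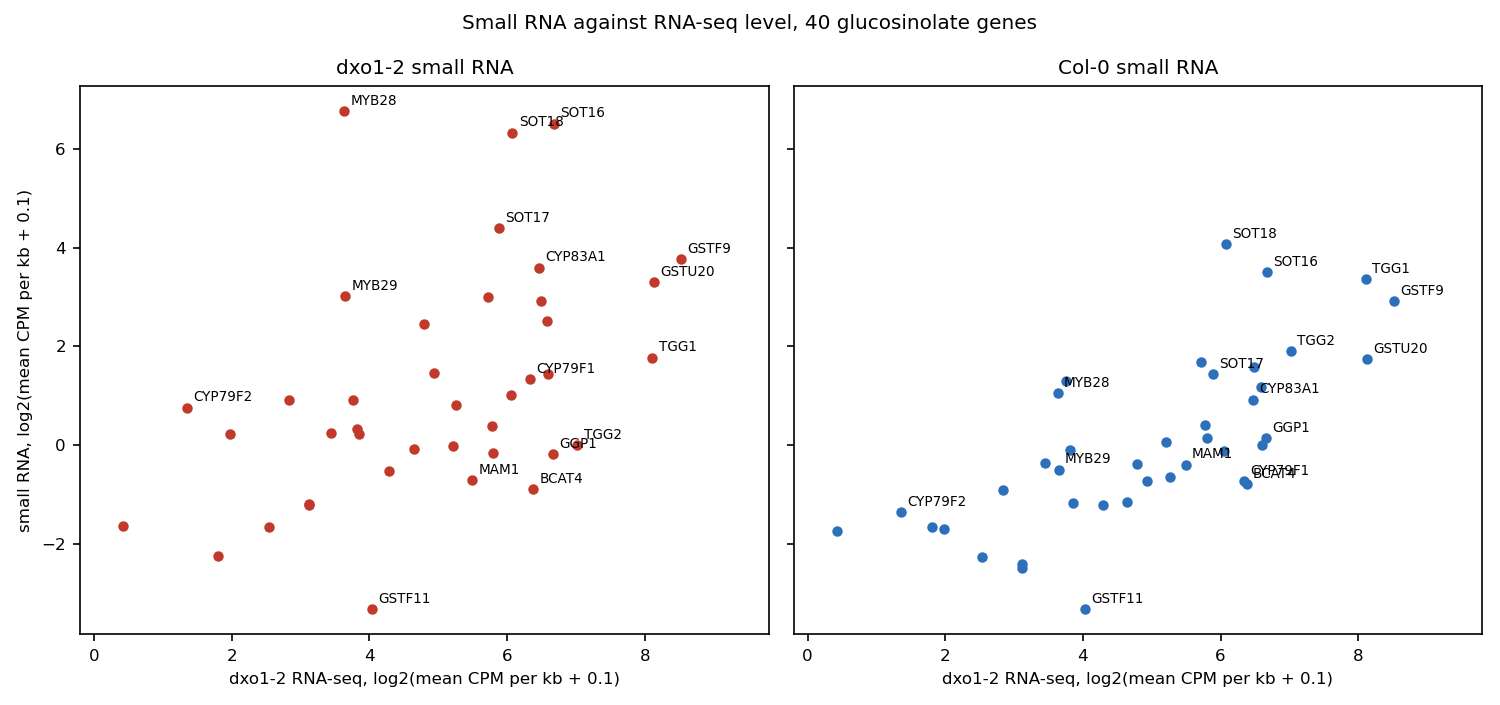
Small RNA level as log2(mean CPM per kb + 0.1) in dxo1-2 (left) and Col-0 (right, y axes) against the dxo1-2 RNA-seq level on the same scale (x axes), for 40 genes. In dxo1-2 MYB28, SOT16 and SOT18 stand far above genes of like RNA-seq level. SOT18 and SOT16 also held ranks 1 and 2 by Col-0 small RNA per kb, at 16.7 and 11.2 CPM per kb. MYB28 had 1.98 CPM per kb in Col-0.

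A further 44 genes of glucosinolate transport, hydrolysis, cofactor supply and regulation were listed by their known roles. Of these 18 were tested, 8 were called higher and 3 lower. That is 44.4% higher and 16.7% lower, beside 26.8% and 23% of all tested genes and 52.1% and 6.59% of tested protein-coding genes expressed in RNA-seq. Among regulators, MYC3 (AT5G46760), a partner of the MYB activators, had 49, 46 and 59 small RNA counts in dxo1-2 and 7, 8 and 9 in Col-0 (log2 fold change 2.00 ± 0.31). The regulator gene OBP2 (AT1G07640) and AT1G04770, which overlaps another gene, had log2 fold changes of 1.54 ± 0.43 and 3.32 ± 0.56. The value of AT1G04770 was 4.47 without Col-0 replicate 1 and 2.72 without Col-0 replicate 2. The call of OBP2 was lost without dxo1-2 replicate 1 (edgeR, adjusted p = 0.0537). MYC2 (AT1G32640), another MYB partner, had 0 counts in every small RNA library, which allows up to 3 in each, and 12405 to 14493 in RNA-seq.

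The other higher calls were the transporter gene GTR2 (AT5G62680, log2 fold change 1.58 ± 0.54), the nitrile-specifier gene NSP5 (AT5G48180, 1.23 ± 0.31), the side-chain gene AT2G25450 (1.73 ± 0.33), the isomerase subunit gene AT2G43090 (1.54 ± 0.56) and GGP3 (AT4G30550, 1.79 ± 0.56). Those of GTR2, AT2G43090 and GGP3 were each lost when single libraries were left out, with the highest adjusted p at 0.113, 0.149 and 0.0987 in edgeR, and those of AT2G43090 and GGP3 were also lost in DESeq2 (adjusted p = 0.0648 and 0.0568). Without Col-0 replicate 3 the log2 fold changes of these 3 were 2.73, 2.47 and 3.09. GTR2 and GGP3 overlap other genes.

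The 3 lower calls were breakdown genes, but genes of that step went both ways. NSP5, also a breakdown gene, was called higher, but its call was lost with small nuclear RNA scaling (log2 fold change 0.81, edgeR, adjusted p = 0.136). The specifier genes NSP1 (AT3G16400) and NSP3 (AT3G16390) were not called, with log2 fold changes of 0.44 ± 0.61 and 0.88 ± 0.53. BGLU28 (AT2G44460), a beta-glucosidase induced by sulfur starvation, had 5, 3 and 0 counts in dxo1-2 and 18, 20 and 19 in Col-0 (log2 fold change -3.44 ± 0.53, and -4.12 without dxo1-2 replicate 1). ESM1 (AT3G14210), a modifier of hydrolysis products, had 376, 283 and 315 counts in dxo1-2 and 413, 358 and 377 in Col-0 (log2 fold change -0.92 ± 0.096). ESP (AT1G54040), the epithiospecifier gene, had the most small RNA counts of the 44, with 1423, 1144 and 1176 in dxo1-2 and 1000, 1081 and 866 in Col-0. Its raw counts were higher in dxo1-2 while its scaled level was lower (log2 fold change -0.33 ± 0.084), and that direction turned to 0.24 with all lines of the table as library size and was -0.0057, no longer called, with library totals alone (edgeR, adjusted p = 0.974). PEN3 (AT1G59870), a transporter that acts with PEN2, did not pass (log2 fold change -0.51 ± 0.27, edgeR, adjusted p = 0.137), although it passed without Col-0 replicate 2 (-0.77, adjusted p = 0.0245).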

How the data were processed

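The deposited files hold raw counts by gene, in tables of 37184 genes plus 5 summary lines for each library. The build TAIR10 and the tools Bowtie, HISAT2, HTSeq, bedtools and DESeq2 are named in the submitters' processing notes. Which tool did what, its version and its settings, strand included, are not given in the sources used here. Overlapping and antisense genes and near copies can therefore share counts. Summary lines held 72.5% to 73.5% of dxo1-2 small RNA lines, 76.3% to 77.8% of Col-0 small RNA lines and 21.0% to 22.6% of RNA-seq lines, and stayed out of tests.

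The genotypes were compared on the small RNA counts of all genes in edgeR 4.0.16 under R 4.3.3, by its quasi-likelihood test (genotype alone as the term, TMM scaling, filterByExpr at its defaults, prior count 0.125), two-sided, with Benjamini-Hochberg adjustment at 0.05. CPM were computed with TMM scaling for small RNA and from gene totals for RNA-seq. The approximate SE was obtained by dividing the size of the log2 fold change by the root of its F statistic, and p-values measure the spread between libraries that the series' design text calls biological replicates. The edgeR step was tested on simulated data. Alternatives included DESeq2 1.42.0 and limma 3.58.1. Replicate numbers did not pair the libraries.

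Symbols, gene spans and neighbours came from a RefSeq table of TAIR10.1, which matched 36899 identifiers. Its assembly name differs from the build of the counts, so no coordinates are given, and span replaced the planned coding length. The genes, lists and tests were chosen with earlier results of these data known. Libraries were grouped by their titles. Values per library are given for members past the threshold or with a mean of at least 50 small RNA counts, and for those singled out in the text.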

Additional observations from a re-analysis of the deposited data

How the results depend on the processing

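Of the 22 members called, 15 kept their call under every alternative in which they were tested. RLE scaling, library totals alone, TMM without rRNA and tRNA genes, DESeq2, limma-voom and the replicate block changed no call among the 29 tested members. Nor did testing with no expression filter, which tested 41 members and called 21 higher, with MYB76 added. The replicate block gave 20 higher and 2 lower members, and of the other pathway genes AT2G43090 lost its call (adjusted p = 0.0595). Same-numbered libraries deviated together with correlations of 0.11, -0.095 and -0.035, so the numbers did not pair them. With all lines as library size 22 members were higher. TMM from small nuclear RNA genes gave 13 higher members, and 7 calls were lost (IIL1, IMD1, CYP83B1, GSTF9, GSTF10, AT2G31790 and FMO GS-OX3). At a mean of at least 50 counts only 8 members could be tested, of which 7 were higher and 1 lower. Leaving out single libraries gave 18 to 21 higher members and 2 lower.

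Over all tested genes, 3093 were higher and 2651 lower. Scaling by library totals alone called 4649 higher and 827 lower, and all lines as library size called 6828 and 502. Small nuclear RNA scaling called 1882 and 2943. A mean of at least 50 counts left 1435 and 1286. Among the 44 other pathway genes, TMM from small nuclear RNA genes gave 3 higher and 5 lower, no expression filter gave 6 lower, a mean of at least 50 counts gave 0 higher of 3 tested by edgeR (ESP, ESM1 and PEN3, whose fold changes were all negative, so 0 at an unadjusted p under 0.05 too), and leaving out single libraries gave 5 to 8 higher. The fold change of ESP turned to 0.24 with all lines. The cause of these shifts was not tested. The median RNA-seq level of 33.6 CPM per kb was 65.4 with nuclear genes without rRNA as the total, and 32.5 to 34.9 without single libraries. Depth limits the 13 members that the filter left out.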
